A study of Oryza sativa Japonica Group with 8 samples.

Results

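Waxy and ALK are the rice loci for a pair of starch synthases of the endosperm, the starch-storing tissue of the grain. They were taken by position on the plus strand of chromosome 6 in Release 7 of the MSU rice genome annotation, and 2 of the 41805 loci in the deposited table met that rule. Waxy was P_XLOC_028907, at 1765622 to 1770656, and its locus ended 3 bases beyond the span used to find it. ALK was P_XLOC_029423, at 6748358 to 6753338, and its locus reached 40 bases further at the start and 36 bases further at the end than its span. No listed minus-strand locus overlapped either span (0 of each). Loci low in every library were not listed, so this does not show that minus-strand transcripts were absent. The loci measured 5035 bp and 4981 bp from end to end and were separated by 4.98 Mb.

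Starch consists of amylose, a nearly unbranched glucose chain, and amylopectin, a branched chain. Waxy encodes granule-bound starch synthase I, which makes amylose inside the starch granule of the endosperm, and loss of its function gives glutinous grains. It is also active in pollen, where waxy and non-waxy plants are told apart by iodine staining. ALK encodes soluble starch synthase IIa, which lengthens short amylopectin chains, and its alleles are known for setting the temperature at which rice starch gelatinises. Values here were per locus, so splice forms and alleles, for which both genes are known in rice breeding, could not be told apart, nor could exonic be separated from intronic signal.

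Transcripts were measured by strand-specific, single-end RNA sequencing of polyadenylated RNA from japonica rice grown in a greenhouse. The 8 groups were mature seeds, milk grains (immature grains with fluid contents), flowers from the day of flowering, flower buds, flag leaves after and before flowering, and roots after and before flowering. No cultivar, treatment or mutation is given in the labels, and each leaf and root sample mixed several stages. Each group had 1 library, so no difference has a replicate check and no test was run. Levels are in FPKM, a unit that scales fragments by transcript length and by the number of mapped fragments, as the authors deposited them. The settings of that scaling are not given, and the end-to-end length of a locus is not its transcript length. Fewer cells of a type and less RNA per cell cannot be told apart in such whole-organ samples.

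The depth in reads is unknown, so no counting interval could be attached to a level. Relative depth on the plus strand, from the value of 1 read at loci of 101 bp, ran from 1.65 to 2.85 times that of mature seeds in 6 libraries. It was 7.79 times that of mature seeds in the library labelled as roots after flowering. That library stood apart from its label. Its values had a Spearman correlation, across loci that are no replicates, of 0.96 with leaves after flowering and at 0.63 with roots before flowering, so every value given for it below rests on a doubtful label. Because the table carries no gene names, organ labels were not checked against marker genes.

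Waxy was highest in the grain, with flower buds next. Its level was 697 FPKM in mature seeds, 3391 FPKM in milk grains, 4.19 FPKM in flowers and 43.1 FPKM in flower buds. Leaves had 7.88 FPKM after and 7.66 FPKM before flowering. Among the libraries labelled roots, Waxy stood at 3.72 FPKM after and 0.31 FPKM before flowering. The order of levels was thus milk grains, mature seeds, flower buds, leaves after flowering, leaves before flowering, flowers, the after-flowering library labelled roots, and roots before flowering. Neighbours in that order were 4.87-fold, 16.2-fold and 5.47-fold apart over the first 4 libraries. The leaf libraries were 1.03-fold apart, leaves before flowering and flowers 1.83-fold, and flowers and the after-flowering library labelled roots 1.13-fold. With 1 library each, no step in this order, large or small, has a replicate check, and the smallest are not read as an order.

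ALK followed the same order over its first 3 libraries at lower levels. It had 46.1 FPKM in mature seeds, 478 FPKM in milk grains, 1.28 FPKM in flowers and 6.65 FPKM in flower buds. Leaves had 0.371 FPKM after and 1.95 FPKM before flowering. The after-flowering library labelled roots had 0.0275 FPKM, and roots before flowering had 0.171 FPKM. No library was at 0 for either gene. For scale, the smallest value above 0 at plus-strand loci of 4 to 6 kb was 0.0026 FPKM in the after-flowering library labelled roots. In roots before flowering it was 0.00595 FPKM. Those loci were matched by end-to-end length, so these minima do not give the value of 1 read at ALK. ALK was below 1 FPKM in 3 libraries, and the counting error behind the order of those 3 is not known.

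**Figure D1:**
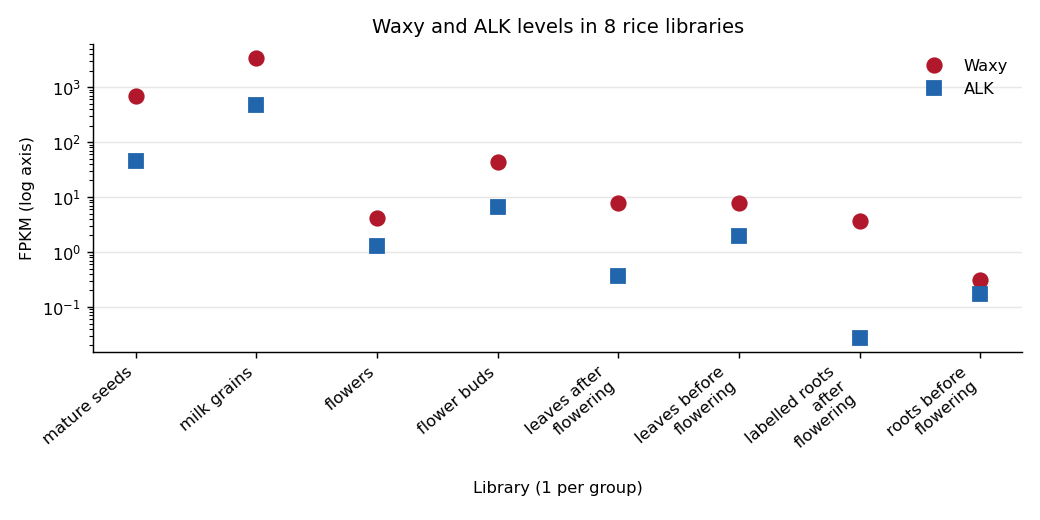
Levels of Waxy (circles) and ALK (squares) in FPKM on a log axis in each of the 8 libraries, 1 per group, with no error bars because there are no replicates. Milk grains are highest for both genes, at 3391 FPKM for Waxy and 478 FPKM for ALK, and Waxy lies above ALK in every library.

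Ranked within a library, which needs no scaling between libraries, Waxy was locus number 586 of 41805 in mature seeds and number 119 in milk grains. Among the 38124 loci of at least 300 bp it was number 447 in mature seeds and number 69 in milk grains. ALK was number 6898 in mature seeds and number 725 in milk grains among loci of any length. Among loci of at least 300 bp ALK was number 6217 in mature seeds and number 569 in milk grains. In milk grains Waxy alone made up 0.103% of the FPKM sum and ALK 0.0145%. Loci under 300 bp held 27.4% of that sum, and without them the shares were 0.142% and 0.02%. Outside the grain, Waxy had 85.2% of all loci below it in flower buds and 46.4% in flowers. ALK had 52.3% of loci below it in flower buds and 31.7% in flowers. In leaves, Waxy had 58.2% of loci below it after flowering and 57.8% before. For ALK these shares were 26.8% and 41.6%, so ALK stood among the low loci of leaves after flowering.

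Whether the loci were specific to the grain was described by setting the lower seed library against the highest of the other 6 libraries, as a ratio of FPKM + 1. A locus was called enriched in seeds at 4-fold or more, which held for 1.26% of all loci (525 of 41805). Waxy met this limit at 15.8-fold and ALK at 6.15-fold, and flower buds were the highest other library for both. The ratio uses only the highest other library, so the remaining non-seed libraries, the after-flowering library labelled roots among them, do not enter it. Without flower buds, a setting chosen after seeing the data that can only raise the ratio, it was 78.6-fold for Waxy and 16.0-fold for ALK. Milk grains alone exceeded the highest non-seed library by 77.0-fold for Waxy and 62.5-fold for ALK, where 3.29% of loci reached 4-fold. Waxy was number 146 and ALK number 170 of all loci by this milk grain ratio. The call of ALK in both seed libraries depended on scaling: with libraries set to equal FPKM sums, the log2 ratio was 1.39, under the 4-fold limit of 2.

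Transcript levels of both synthases were lower in mature seeds than in milk grains. Waxy stood at 697 FPKM in mature seeds, against 3391 FPKM in milk grains, and ALK at 46.1 FPKM in mature seeds, against 478 FPKM in milk grains. The log2 ratio of mature seeds over milk grains was -2.28 for Waxy and -3.34 for ALK on the FPKM + 1 scale. In FPKM without a pseudocount, Waxy and ALK in mature seeds were at 20.5% and 9.66% of their milk grain levels. Both were called at least 4-fold lower, as were 17.4% of compared loci (11.5% were higher), and 14.2% of loci had a ratio as low as that of Waxy and 6.58% as low as that of ALK. Of all called loci in this comparison, 39.9% were higher in mature seeds as deposited, 23.1% with equal sums and 27.4% with equal sums over loci of at least 300 bp. The median log2 ratio of the compared loci shifted by -0.62 with equal sums. Measured from that median, Waxy stood at -2.12 as deposited and -2.20 with equal sums, and ALK at -3.19 and -3.24.

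The decline was then set beside that of other loci high in milk grains. The 1233 loci of at least 300 bp that were at least 4-fold higher in milk grains than in every non-seed library had a median log2 ratio of mature seeds over milk grains of -2.19. This set was chosen on its milk grain values, including those of Waxy and ALK, so the decline is a description only. Of the set, 656 loci (53.2%) were at least 4-fold lower in mature seeds and 132 (10.7%) at least 4-fold higher. A ratio at or above that of Waxy was held by 52.3% of the set, which places Waxy near the middle. A ratio at or above that of ALK was held by 72.6%, so ALK lay among the loci with the larger declines. In milk grain level, 37 loci of the set exceeded Waxy and 144 exceeded ALK.

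**Figure D2:**
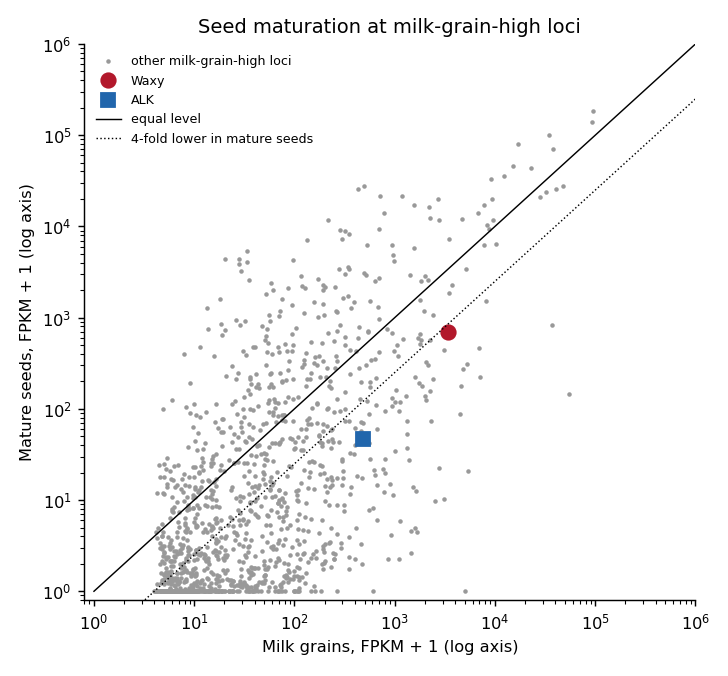
Levels in mature seeds (vertical) and milk grains (horizontal), as FPKM + 1 on log axes, of 1233 loci that were high in milk grains, 1 library per axis. The solid line marks equal levels and the dotted line a level 4-fold lower in mature seeds, and Waxy (circle) and ALK (square) both lie below the dotted line.

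Grain filling was described by milk grains against flowers. Waxy was at 3391 FPKM in milk grains and 4.19 FPKM in flowers, a log2 ratio of 9.35. ALK was at 478 FPKM in milk grains and 1.28 FPKM in flowers, a log2 ratio of 7.71. At least 4-fold higher in milk grains were 8.05% of compared loci, and 6.49% were lower. Of 33134 compared loci, 87 had a ratio at or above that of Waxy and 161 at or above that of ALK. Higher loci made up 55.4% of called loci as deposited, 36.3% with equal sums and 33.5% with equal sums over loci of at least 300 bp, and the ratios of both genes stayed between 7.21 and 9.35 under these scalings and median-ratio scaling.

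Milk grains were also set against leaves after flowering, a photosynthetic organ sampled over a mixture of later stages. This comparison shares the milk grain library with the last. Waxy had 3391 FPKM in milk grains and 7.88 FPKM in leaves, and ALK had 478 FPKM in milk grains and 0.371 FPKM in leaves. The log2 ratios were 8.58 and 8.45, although the ALK ratio without a pseudocount was far larger, at 1287-fold against 430-fold for Waxy. At least 4-fold higher in milk grains were 15.5% of compared loci and 12.5% were lower, and 113 of 33481 loci had a ratio at or above that of Waxy. The starch of leaves is turned over daily and its amylose is known to be made by another granule-bound synthase, which was not analysed here.

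Outside the grain, Waxy stood lower in open flowers than in flower buds. Waxy had 4.19 FPKM in flowers and 43.1 FPKM in flower buds, a log2 ratio of -3.09, and was called at least 4-fold lower, as were 3.61% of compared loci, while 3.08% were higher. A share of 1.35% of loci had a ratio that low. ALK had 1.28 FPKM in flowers and 6.65 FPKM in flower buds, a log2 ratio of -1.75, which did not reach 4-fold on the FPKM + 1 scale. Without a pseudocount the flower bud level was 5.19 times that of flowers for ALK and 10.3 times for Waxy, and with a pseudocount of 0.1 ALK passed the limit at -2.29. Flower buds held the highest non-seed value for 19.4% of all loci and for 20.6% of the 1233 loci high in milk grains. Flowers held it for 43.1% of that set, so Waxy and ALK belonged to its smaller share with flower buds on top.

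In flag leaves neither gene was called. Waxy had 7.88 FPKM after flowering and 7.66 FPKM before, a log2 ratio of 0.04, in the middle of the compared loci and with a negative sign under equal sums and median-ratio scaling. ALK had 0.371 FPKM after flowering and 1.95 FPKM before, a log2 ratio of -1.10. The background was 4.89% of compared loci past 4-fold upwards after flowering and 3.54% downwards. With a pseudocount of 0.1 the ALK ratio was -2.12, past the limit, so its call in leaves depended on how low values were treated.

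In the libraries labelled roots, Waxy had 3.72 FPKM after flowering and 0.31 FPKM before, a log2 ratio of 1.85, short of 4-fold. The background was 13.5% of loci at least 4-fold higher and 16.5% lower. With a pseudocount of 0.1 the Waxy ratio was 3.22. ALK was under 1 FPKM in both libraries, at 0.0275 FPKM after and 0.171 FPKM before flowering, and was not among the compared loci. The Waxy level of the after-flowering library labelled roots lay, on the log scale, nearer to those of the leaf libraries, 7.88 and 7.66 FPKM, than to that of roots before flowering. Its ALK level lay below those of the leaf libraries and of roots before flowering. Without this library there is no root comparison, and roots before flowering remain the organ with the lowest Waxy level.

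**Figure D3:**
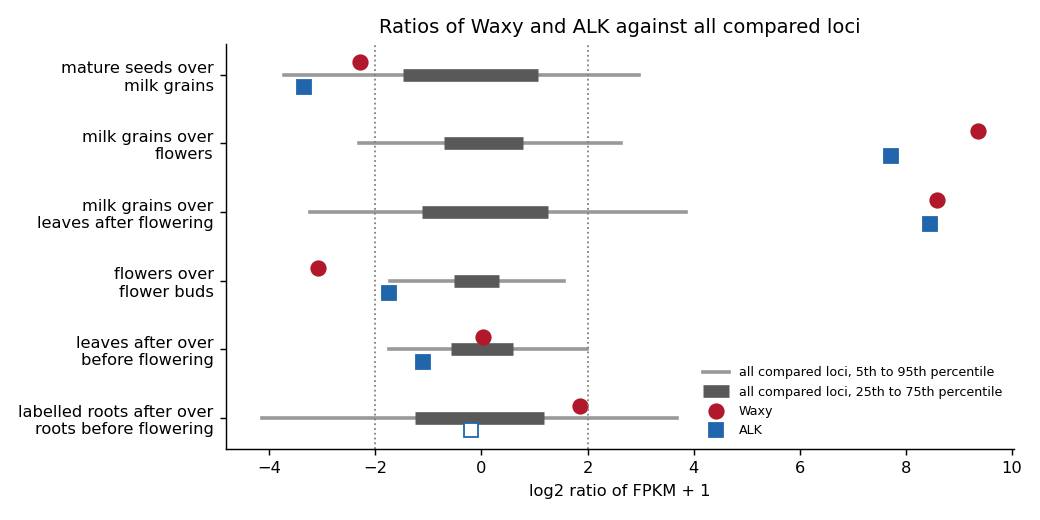
Log2 ratios of FPKM + 1 for Waxy (circles) and ALK (squares) in 6 comparisons, each 1 library over another, over the spread of all compared loci (thick bars, 25th to 75th percentile; thin bars, 5th to 95th). Dotted lines mark 4-fold, the open square marks ALK under 1 FPKM in both libraries, and the milk grain ratios of 7.71 to 9.35 lie far beyond the bars.

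The balance of the Waxy and ALK transcripts was given as log2 of Waxy over ALK within a library on the FPKM + 1 scale. Each of the 3 scalings between libraries divides both genes by the same factor, and so could move it only through the pseudocount. That movement was at most 0.15. The balance was 3.89 in mature seeds and 2.83 in milk grains, which correspond to 15.1-fold and 7.10-fold in FPKM. Of the seed libraries, mature seeds thus had the higher balance. The balance was 1.18 in flowers and 2.53 in flower buds, where Waxy was 3.26-fold and 6.47-fold above ALK. It was 2.70 in leaves after and 1.56 in leaves before flowering, or 21.2-fold and 3.94-fold in FPKM. The libraries labelled roots gave 2.20 after and 0.16 before flowering, or 135-fold and 1.81-fold in FPKM. Where ALK was below 1 FPKM the pseudocount set the balance: with 0.1 in place of 1 it was 4.90 in the after-flowering library labelled roots and 4.08 in leaves after flowering, above the 3.91 of mature seeds. Mature seeds were thus highest on the FPKM + 1 scale alone. Milk grains and flower buds thus had balances of 2.83 and 2.53, while their Waxy levels were 78.7-fold apart.

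**Figure D4:**
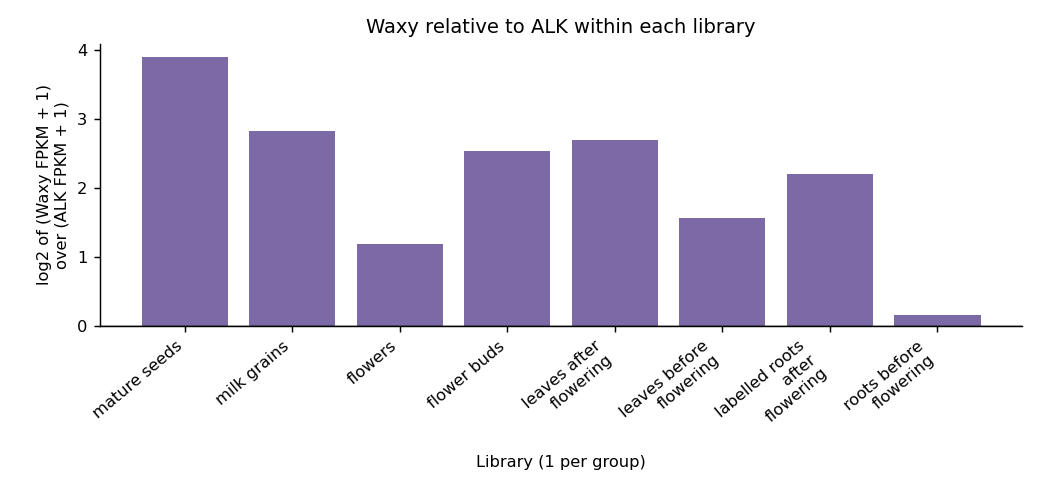
Log2 of (Waxy FPKM + 1) over (ALK FPKM + 1) in each library, 1 per group, as bars from 0. All bars are positive, from 0.16 in roots before flowering to 3.89 in mature seeds, but with a pseudocount of 0.1 leaves after flowering (4.08) and the after-flowering library labelled roots (4.90) exceed mature seeds (3.91).

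Across the 8 libraries, log2 levels of Waxy and ALK correlated at 0.97 (Pearson) and their levels at 0.90 (Spearman). Over 7 libraries, without the after-flowering library labelled roots, these were 0.97 and 0.89. Over the 6 non-seed libraries they were 0.83 and 0.77. These are descriptions over libraries that share a single scaling per library. Among 24542 loci of at least 300 bp that reached 10 FPKM, ALK was number 5 in likeness to Waxy, and Waxy number 14 in likeness to ALK.

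The loci most like each gene in shape differed in size of change. Most like Waxy were M_XLOC_020935 on chromosome 3 (28039346 to 28042378, minus strand) and P_XLOC_018871 on chromosome 3 (14878671 to 14883796, plus strand), both at a Pearson correlation of 0.98. Their highest library was only 3.57 and 3.49 times the lowest, against 10942 times for Waxy, so the likeness is one of order and spacing and not of size. M_XLOC_020935 stood at 83.2 FPKM in mature seeds and 90.6 FPKM in milk grains. Most like ALK were P_XLOC_012591 on chromosome 12 (23918907 to 23923368, plus strand) and M_XLOC_031995 on chromosome 6 (26435247 to 26439317, minus strand), both at 0.99. P_XLOC_012591 stood at 31.8 FPKM in mature seeds and 360 FPKM in milk grains, and was listed at 0 in both libraries labelled roots. M_XLOC_031995 stood at 8.37 FPKM in mature seeds and 35.4 FPKM in milk grains. The same 2 loci led for ALK without the after-flowering library labelled roots, and 1 of 2 for Waxy. By Spearman correlation, 0 of 2 were the same for either gene, so these names depend on the measure.

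Few loci around the genes met the grain limits, as was the case for loci at large. Within 100 kb of Waxy lay 31 other loci, of which 0 were enriched in both seed libraries and 2 (6.45%) were at least 4-fold higher in milk grains than in every non-seed library. Within 100 kb of ALK lay 26 other loci, with 0 in either class. Over all loci the shares were 1.26% for both seed libraries and 3.29% for milk grains, and on all of chromosome 6, 1.35% of loci were enriched in seeds. At 50 kb the numbers were 2 of 21 around Waxy and 0 of 17 around ALK for milk grains, and at 200 kb 4 of 66 and 0 of 51. Loci enriched in both seed libraries numbered 0 at 50 kb around either gene, and at 200 kb 1 of 66 (1.52%) around Waxy and 0 of 51 around ALK.

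One of the 2 milk grain loci adjoined Waxy. P_XLOC_028906 (1761433 to 1764280, plus strand) ended 1341 bp before the start of Waxy on the same strand. It had 0.533 FPKM in mature seeds and 8.58 FPKM in milk grains, and between 0.61 and 0.941 FPKM in the other 6 libraries. Its log2 ratio of mature seeds over milk grains was -2.64. The other, M_XLOC_029625 (1736249 to 1742581, minus strand), had 0.498 FPKM in mature seeds and 81.1 FPKM in milk grains, and 17.0 FPKM in flower buds. It was named after its values were seen. On the far side of Waxy, P_XLOC_028908 (1776869 to 1777841, plus strand) began 6212 bp after Waxy and had 1.34 FPKM in mature seeds, 33.2 FPKM in milk grains and 18.2 FPKM in roots before flowering.

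The plus-strand neighbours of ALK went other ways. P_XLOC_029421 (6736053 to 6737803), 10554 bp before ALK, had 0.158 FPKM in mature seeds and 2.64 FPKM in milk grains but 43.2 FPKM in roots before flowering. P_XLOC_029424 (6758056 to 6764101), 4717 bp after ALK, had 11.3 FPKM in mature seeds and 2.93 FPKM in milk grains, and its highest level was 65.7 FPKM, in leaves before flowering. The nearest minus-strand locus was M_XLOC_030143 (6754294 to 6755541), which lay 955 bp beyond the end of ALK and ran towards it. It had 0.178 FPKM in mature seeds and 0.0599 FPKM in milk grains, against 1.36 and 5.85 FPKM in leaves after and before flowering. Its level in the after-flowering library labelled roots was 3.70 FPKM. Around Waxy, the nearest minus-strand locus was M_XLOC_029626 (1754180 to 1761440), 4181 bp away, at 13.4 FPKM in mature seeds and 5.05 FPKM in milk grains. Its levels in the other 6 libraries lay between 5.26 and 8.41 FPKM.

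**Figure D5:**
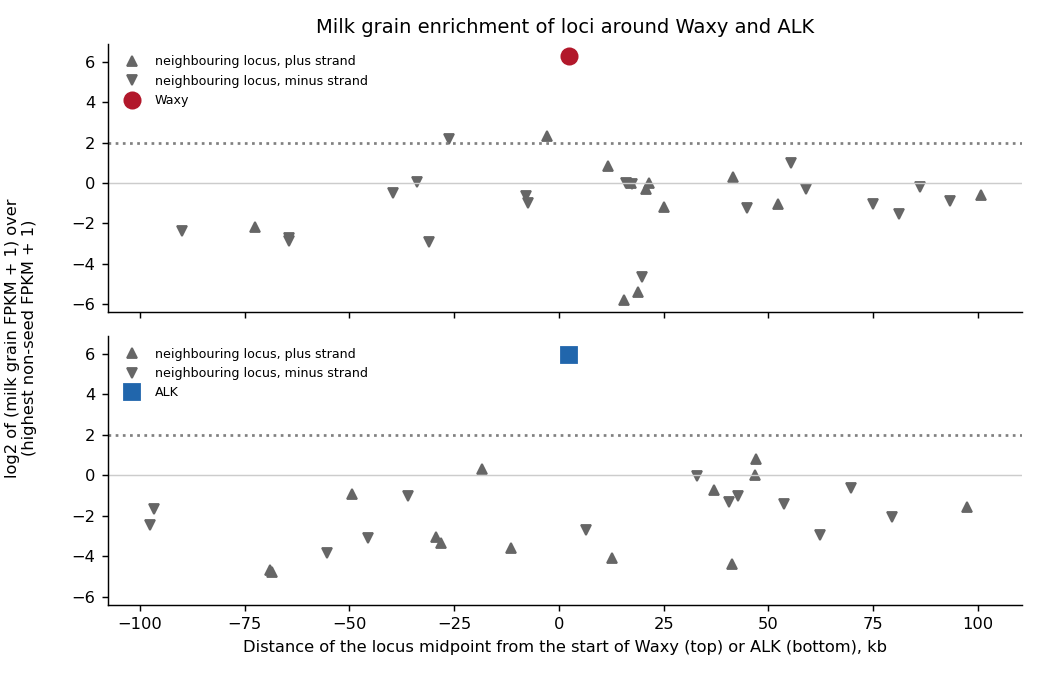
Log2 of (milk grain FPKM + 1) over (highest non-seed FPKM + 1) for every locus within 100 kb of Waxy (top) and ALK (bottom), against the distance of its midpoint from the start of the gene in kb, with triangles pointing up for the plus strand and down for the minus strand. The dotted line marks 4-fold, which 2 of 31 neighbours of Waxy and 0 of 26 neighbours of ALK reached.

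Other genes of starch synthesis could not be placed on the table. Of 25 entries on a list of starch synthases, branching and debranching enzymes, ADP-glucose pyrophosphorylase subunits, phosphorylase and the ADP-glucose transporter, 7 were matched by synonym in the RefSeq gene table of assembly ASM3414082v1. The 7 include the entries for Waxy and ALK themselves, granule-bound starch synthase 1 and starch synthase 2a. Assembly ASM3414082v1 is not the build of the deposited positions, and 0 of the deposited identifiers occur in it. Values of the remaining pathway genes were therefore not analysed here.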

How the data were processed

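FPKM values were deposited by the authors as 1 table of 41805 loci and 8 libraries. The submitters' processing notes name TopHat, Cufflinks and Cuffdiff, while versions and settings are not given in those sources. Positions follow MSU Release 7, per the file headers. Every locus in the table reached 1 FPKM in at least 1 library (the lowest maximum was 1.00015), so loci low everywhere are missing from all shares.

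Ratios were log2 of (FPKM + 1) over (FPKM + 1), which understates changes of low loci. Compared loci had 1 FPKM or more in at least 1 of the pair, and 4-fold was the limit for a call. With 1 library per group, no test was run. Likeness was the Pearson correlation of log2(FPKM + 1) among loci of at least 300 bp reaching 10 FPKM. Named loci were those over the spans, the nearest on each side, and the 2 most alike. Relative depth came from loci of 101 bp, where values were whole multiples (within 0.03) of a step. Alternatives were a pseudocount of 0.1, a 2-fold limit, filters of 5 FPKM or none, loci of at least 300 bp, and 3 scalings. Counting was checked on simulated data. Members, lists and rules were chosen with earlier results of these data known. Work used Python 3.11.15, pandas 2.3.3, numpy 2.4.6 and matplotlib 3.10.9.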

Additional observations from a re-analysis of the deposited data

How the results depend on the processing

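No paired analysis was possible because each group has 1 library, and for the same reason no replicate could be left out. Of 114 alternative values for 22 ratios, 104 kept their side of the limit, but many of these could hardly do otherwise. Scaling divides Waxy and ALK by the same factor, so Waxy over ALK can move only through the pseudocount. A 2-fold limit can only add calls. Leaving out the after-flowering library labelled roots does not change the seed enrichment, and leaving out flower buds can only raise it. The count is therefore no measure of robustness. With a pseudocount of 0.1, Waxy over ALK was 4.90 in the after-flowering library labelled roots and 4.08 in leaves after flowering, above the 3.91 of mature seeds, and calls were gained by Waxy in the labelled root pair (3.22) and by ALK in flowers over flower buds (-2.29) and in the leaf pair (-2.12). With a 2-fold limit, calls were gained at unchanged values of 1.85, -1.75 and -1.10 for these ratios, and of 1.18 and 1.56 for Waxy over ALK in flowers and in leaves before flowering. Enrichment of ALK in both seed libraries was lost at 1.39 with equal sums and at 1.54 with equal sums over loci of at least 300 bp. These scalings lowered that ratio by dividing mature seeds by 1.52 and 1.57, and flower buds by 0.611 and 0.706. Why the sums differ between libraries was not tested.

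Background counts moved by over 1.5 times in 4 settings. Loci higher in mature seeds than milk grains numbered 2206 with equal sums and 2414 with equal sums over loci of at least 300 bp (3731 as reported), and loci lower in milk grains than flowers 3745 and 3873 (2150). With a pseudocount of 0.1, loci lower in mature seeds than milk grains numbered 8564 (5628 as reported). Higher and lower loci numbered 4132 and 3761 in milk grains over flowers (2668 and 2150), 1923 and 2295 in flowers over flower buds (995 and 1166), and 2500 and 2090 in the leaf pair (1447 and 1049). In the labelled root pair 6858 were higher (4537). With a 2-fold limit, the higher and lower counts were 8500 and 11149 for mature seeds over milk grains, 6624 and 6122 for milk grains over flowers, 9878 and 9236 for milk grains over leaves, 3153 and 4081 for flowers over flower buds, 4475 and 4324 for the leaf pair, and 9706 and 9762 for the labelled root pair.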

Other observations

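A group of loci close to Waxy was listed almost only in mature seeds. Of the 30 loci of at least 300 bp within 100 kb of Waxy, 5 (16.7%) reached 1 FPKM in mature seeds and stayed under 0.5 FPKM in every other library, against 1.82% of all loci of that length and 0 of 22 around ALK. They lay between 1781473 and 1787532 on chromosome 6, 3 of them on the plus and 2 on the minus strand. Not all of the 5 are separate stretches. P_XLOC_028910 lies wholly within M_XLOC_029633 on the opposite strand, so the share counts that stretch on both strands. M_XLOC_029632 lies within P_XLOC_028909 on the opposite strand, which had 42.0 FPKM in mature seeds and 379 FPKM in roots before flowering. Between the 5 lay P_XLOC_028911 and M_XLOC_029634, at 301 and 100 FPKM in mature seeds and 2680 and 624 FPKM in roots before flowering. On the plus strand P_XLOC_028912 ended at 1786759 and P_XLOC_028913 began at 1786861. On the minus strand M_XLOC_029632 ended at 1781880 and M_XLOC_029633 began at 1782171. Whether such loci are parts of the same transcript was not tested. Levels of the 5 loci were 1.64 to 5.89 FPKM in mature seeds, and the highest value in any other library was 0.227 FPKM. Mature seeds were the shallowest library, and whether depth bears on these loci was not tested. They were chosen after their values were seen.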
